A study of Mus musculus with 14 samples.

Results

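Across the genome of wild type and CTCF-mutant mouse embryonic stem cells and of embryoid bodies made from them, most places where CTCF was bound in every library stood alone, but 3804 of them were packed into dense clusters. Peaks of the 8 CTCF libraries that overlapped by at least 1 bp were merged into 86652 sites. An autosomal site with a peak in all 8 lists was called constitutive, which left 35584 sites. Constitutive neighbours separated by a gap of at most 5 kb were joined into chains, and the sites of every chain with at least 3 members were taken. These 3804 clustered sites formed 1137 chains and made up 10.7% of the constitutive sites and 4.39% of all merged sites. A further 7388 constitutive sites lay in chains of 2 and 24392 were single, and these served for comparison. Peak position and presence chose the members, so the spacing within chains and the presence in every list are descriptions only. Motifs, gene context and acetylation were not used by the rule. Heights entered it only as the need for a called peak in each of the 8 lists, so a site that lost its peak in any group, K20R at day 4 included, could not be a member.

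CTCF is a zinc finger protein that binds a long, asymmetric DNA motif. Cohesin, the ring that extrudes chromatin loops, is halted by CTCF mainly when it meets the protein from the side that the motif orientation sets, so loop anchors tend to carry motifs that point towards each other, and the borders of topological domains often hold several CTCF sites. Tandem arrays of CTCF sites are also known from clustered gene families such as the protocadherins and from the immunoglobulin heavy chain locus.

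The cells were E14Tg2A mouse embryonic stem cells (mESCs) kept with LIF and 2i on feeder fibroblasts inactivated with mitomycin C, either wild type (WT) or carrying CTCF with lysine 20 exchanged for arginine (K20R) by CRISPR/Cas9 editing. Arginine keeps the charge of the residue but cannot be acetylated as lysine is. CTCF ChIP-seq was made from mESCs (day 0) and from embryoid bodies (EBs, day 4) formed in hanging drops with serum and without LIF, with 2 replicates for each genotype and day. Histone H3 acetylated at lysine 27 (H3K27ac), which is found at active enhancers and promoters, was profiled at day 4 with 1 library per genotype and thus has no replicate check. The number of clones behind each genotype is not given in the labels, so genotype and clone cannot be told apart. The methods of the study call the replicates biological without saying whether they were separate cultures, and p-values measure only the spread between these libraries. Peak lists hold no expression markers, so the labelled cell types were not checked, and signal from feeder cells at day 0 cannot be told apart from that of mESCs.

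The height of a peak is given here in 2 ways. Fold enrichment is the reported ratio of the summit signal to the local background. The pileup is the number of fragments stacked at the summit, solved from fold enrichment and the reported p-value, and it came out whole within 0.01 for 100% of peaks in each CTCF list. The median pileup over constitutive sites ran from 33 to 57 in the 8 libraries. The libraries differed within groups. WT replicates of day 0 had medians of 56 and 33, and K20R replicates of day 4 had medians of 35 and 54. The background under the peaks was nearly shared within a group (Spearman 0.856 to 0.904 over sites in the 4 replicate pairs). Between groups it was weakly related (0.0722 to 0.121 in 24 pairs), so that fold enrichment carries a group component that the pileup does not. Replicates of a group share most of that component, so p-values on fold enrichment do not measure its spread. The K20R libraries also had a wider spread of log2 fold enrichment (SD 0.945 to 1.07) than the WT libraries (SD 0.62 to 0.75). The part of both features in the genotype comparisons was not tested, and every comparison is therefore given on both measures.

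Most chains were short. There were 855 chains of 3, 207 of 4, 48 of 5, 21 of 6, 4 of 7, 1 of 8 and 1 of 9. A chain spanned 7133 bp at the median, from 1885 to 29523 bp, and all chains covered 8.54 Mb in sum. The gap between neighbours in a chain was 2163 bp at the median, from 3 to 4998 bp, and 606 of 2667 gaps (22.7%) were under 1 kb. The median gap between all neighbouring constitutive sites was 23901 bp. Just inside the threshold, a gap of 4998 bp joined sites near Mrps16, and gaps of 4995 bp joined sites near Ncbp3 and near Serpinb1b. Just outside it, gaps of 5004 bp near Bpifb1, 5005 bp near Gm44920 and 5007 bp near Sept9 were not bridged. Clustered sites were unevenly spread. They formed 15.3% of the constitutive sites on chromosome 5, 14.1% on chromosome 7 and 13.7% on chromosome 11, but 6.95% on chromosome 16 and 6.84% on chromosome 14.

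**Figure D1:**
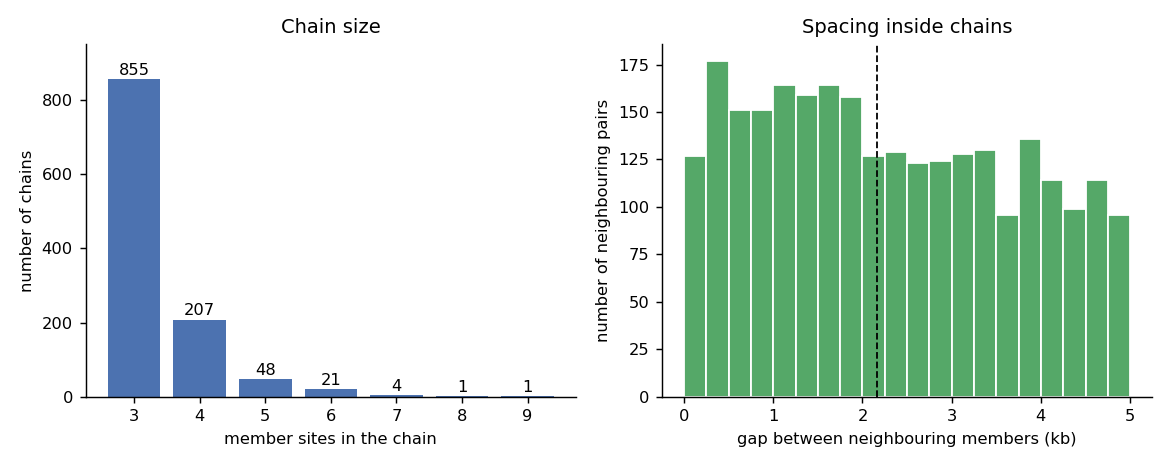
Left, number of chains (linear axis) by the number of constitutive CTCF sites they hold; right, number of gaps between neighbouring sites of a chain by gap length in kb, with the median of 2163 bp as a dashed line. Of the 1137 chains, 855 held 3 sites, and gaps of all lengths up to the 5 kb limit occurred.

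The sequences of the longest chains show how clustered sites were built. A 19-bp CTCF motif was learned from the strongest peaks (consensus NNNCCANNAGGGGGCGCNN) and the best match within 100 bp of each summit was taken. In the sequences below, read 5′ to 3′ on the strand of the motif, capitals mark bases that match the consensus and lower case marks the rest. The longest chain held 9 sites at chr10:79768133-79796246 (mm10), across Fstl3, which encodes a follistatin-like protein that binds activins, Prss57, a serine protease gene, and the start of Palm, which encodes a membrane-associated phosphoprotein. Its motifs lay on strands +, −, +, −, +, −, −, + and − in order, and no 2 of the 9 sequences were equal.
Fstl3 chain, site 1: tgaCCAccAGaGGGCaCat
Fstl3 chain, site 2: aggCCAgaAGaGGGtGCca
Fstl3 chain, site 3: aggCCAgaAGaGGGCGgca
Fstl3 chain, site 4: gtcCCggtAGGtGGCGCca
Fstl3 chain, site 5: gccCCAgtAGaGGGCtgaa
Fstl3 chain, site 6: cgtCCAgtAGGGGGCGCaa
Fstl3 chain, site 7: gaaCCAgaAGGtGGCatca
Fstl3 chain, site 8: cggCCAgcAGGaGGCGCgc
Fstl3 chain, site 9: aggtCAgaAGaGGGCatca

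Strong and weak sites stood side by side in this chain. Strength was expressed as the mean over the 8 libraries of a site's percentile rank of pileup among the constitutive sites. Sites 4 and 8 ranked at 92.0 and 95.3, whereas sites 5 and 9, only 2746 and 1911 bp from them, ranked at 9.27 and 6.59. Site 4 (chr10:79779585-79780267, in an exon, nearest start Fstl3) had pileups of 102 and 86 in WT and 158 and 156 in K20R at day 0, and of 71 and 54 in WT and 77 and 206 in K20R at day 4. Site 5 (chr10:79783014-79783433, in an exon) had 31 and 16 in WT and 15 and 15 in K20R at day 0, and 19 and 19 in WT and 12 and 15 in K20R at day 4. Site 4 thus rose above site 5 in each of the 8 libraries. The sites were set apart here by mean rank over the same libraries, so this is a description. Site 8 lay 41 bp from the Palm start and overlapped H3K27ac in both genotypes.

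Other long chains pointed one way. A chain of 7 sites at chr5:128964162-128981994 lay between Rimbp2, a gene for a synaptic scaffold protein, and Stx2, a gene for a membrane fusion syntaxin, and all of its motifs were on the minus strand. Sites 3 and 7 ranked at 91.2 and 93.3 and the other sites between 18.2 and 54.0. The last site (chr5:128981386-128981994) had pileups of 102 and 62 in WT and 122 and 143 in K20R at day 0, and of 77 and 85 in WT and 88 and 138 in K20R at day 4. A chain of 6 sites at chr12:113215710-113224552 lay between Tmem121 and Igha, the constant region gene of immunoglobulin A, and all of its motifs were on the plus strand. This is the 3′ end of the immunoglobulin heavy chain locus, which is known to be bordered by an array of CTCF sites. The sequences of the strongest site of the first chain and of all sites of the second are shown so that tandem copies of a sequence could be recognised.
Stx2 chain, site 7: tgaCCAgcAGGtGGCagca
Igha chain, site 1: aggCCAccAGGGGGtGCac
Igha chain, site 2: tgaCCAcacGGtGGCagca
Igha chain, site 3: tagCCAccAGGGGGCaCat
Igha chain, site 4: tgtCCAccAGGGGGCaCct
Igha chain, site 5: tggCCAcatGGtGGCagca
Igha chain, site 6: agtCCtctAGaGGGaGCcc

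No 2 of the 6 Igha motifs were equal, but those of sites 2 and 5 had the same base at 17 of 19 positions and those of sites 3 and 4 at 16. Over all pairs of sites in a chain with a motif at both, 105 of 4167 (2.52%) had at least 17 equal bases and 6 had all 19. Longer shared stretches around the motif were rare. In chains, 7 of 2667 neighbouring pairs (0.262%) and 14 of all 4750 pairs (0.295%) shared at least 0.1 of their 12-base words (Jaccard index, 201-base windows), beside 0.244% in chains of 2 and 0.384% of neighbours over 5 kb apart. Igha sites 2, 3 and 5 ranked at 82.5, 81.6 and 91.3, and site 1 was the weakest at 29.8. Site 5 (chr12:113221833-113223163) had pileups of 89 and 74 in WT and 153 and 124 in K20R at day 0, and of 67 and 65 in WT and 84 and 153 in K20R at day 4.

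**Figure D2:**
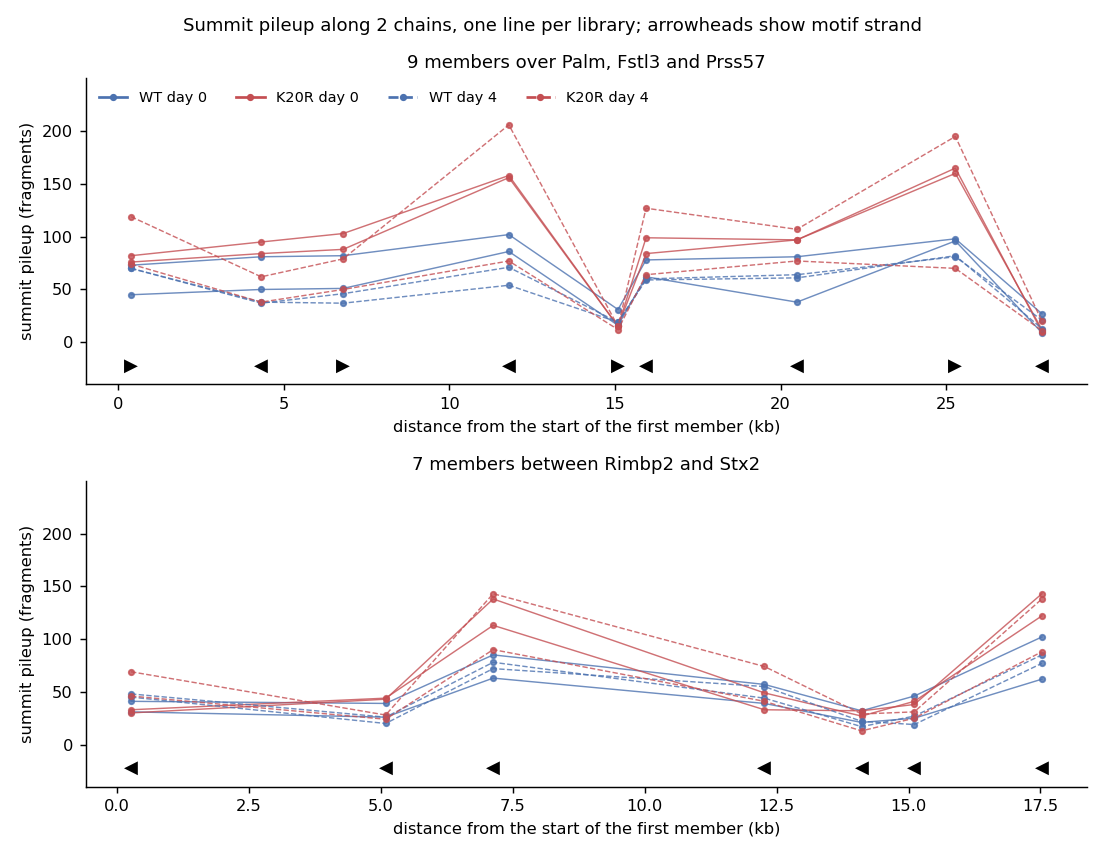
Summit pileup (fragments, linear axis) at each site, by distance from the start of the first site in kb, along the 9-site chain at Fstl3, Prss57 and Palm and the 7-site chain between Rimbp2 and Stx2; each line is 1 of the 8 libraries (blue WT, red K20R, solid day 0, dashed day 4) and arrowheads give the motif strand. In the 9-site chain, site 4 has pileups of 54 to 206 and its neighbour, site 5, has 12 to 31.

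Both long protocadherin chains sat on chromosome 18. Clustered protocadherins are cell adhesion proteins of neurons, and each isoform is read from its own start site. The chain of 8 sites at chr18:37484572-37506803 covered Pcdhb17 to Pcdhb20. Its 4 sites with a motif were all on the plus strand and lay 114, 75, 66 and 57 bp from the 4 start sites. They alternated with 4 exonic sites that had no motif match and lay 2292, 2190, 2196 and 2185 bp from the nearest start. The chain of 7 sites at chr18:37736563-37766085 placed each site 38 to 307 bp from the start of Pcdhga9, Pcdhgb6, Pcdhga10, Pcdhgb7, Pcdhga11, Pcdhgb8 or Pcdhga12. Its Pcdhgb7 site ranked at 95.3 and its Pcdhga9 site at 42.9.

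The remaining named chains differed in height. The chain of 7 at chr8:119295403-119311892, inside an intron of Cdh13, which encodes a cadherin without a cytoplasmic domain, had ranks between 10.6 and 59.8 and thus no strong site. The chain of 7 at chr1:86520274-86540101 surrounded Ptma, the prothymosin alpha gene. Of its sites, 4 overlapped WT H3K27ac and 5 overlapped K20R H3K27ac. The chain of 6 at chr19:3718882-3729269 began 30 bp from the start of AC132452.1.

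Nearly all clustered sites held a motif. A match was found at 93.8% of clustered sites (95% Wilson interval 93.0 to 94.5%), at 93.6% of sites in chains of 2 and at 93.0% of single sites. By construction 5% of windows shifted by 1 kb passed this threshold. At the stricter threshold that 1% of shifted windows passed, the shares were 84.3%, 82.9% and 81.3%. The median motif score was 16.4 in clusters and 15.9 at single sites. At least 2 motifs in 1 window occurred at 6.73% of clustered and 5.43% of single sites, so second motifs under the same peak were uncommon. These intervals hold counting error alone, as if each site were an independent draw.

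Sites at either end of the range of heights show how far the letters can vary. Among the 3 clustered sites with the highest mean percentile of fold enrichment were those nearest to Gm42894 (chr5:130853116-130853724) and Gm44067 (chr6:128845112-128845703), and their motifs are shown beside that of a weak site near Aaed1 (chr13:64312398-64312901) that had pileups of 5 to 15.
Gm42894 site: ctaCCggcAGGGGGCGCtc
Gm44067 site: tgaCCActAGGGGaCagca
Aaed1 site: gggCCAcgcGGGGcCGacc

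The orientation of neighbouring motifs depended on distance. Of 2365 neighbouring pairs in chains with a motif at both sites, 53.7% (51.7 to 55.7%) had motifs on the same strand, 18.9% (17.4 to 20.6%) were convergent (plus, then minus) and 27.4% (25.6 to 29.2%) were divergent (minus, then plus). Divergent pairs were therefore 1.44 times as many as convergent pairs. Neighbours over 200 kb apart showed the opposite, with 34.1% convergent (32.1 to 36.2%) and 17.4% divergent (15.8 to 19.1%) of 2027 pairs and a ratio of 0.509. Between these distances the ratio fell from 1.29 at 5 to 10 kb and 1.14 at 10 to 50 kb to 0.694 at 50 to 200 kb. The excess of divergent pairs was thus shared with chains of 2 (ratio 1.39) and did not begin at the 5 kb limit.

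Within chains the ratio was 1.34 under 1 kb, 1.38 from 1 to 2.5 kb and 1.55 from 2.5 to 5 kb. Pairs with both motifs outside repeat-masked sequence had a ratio of 1.77 (1179 pairs) and pairs with both motifs in repeats had 1.17 (316 pairs). The last site of a chain and the first site of the next chain, where nothing constitutive lay between, had a ratio of 0.579 in only 56 pairs.

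**Figure D3:**
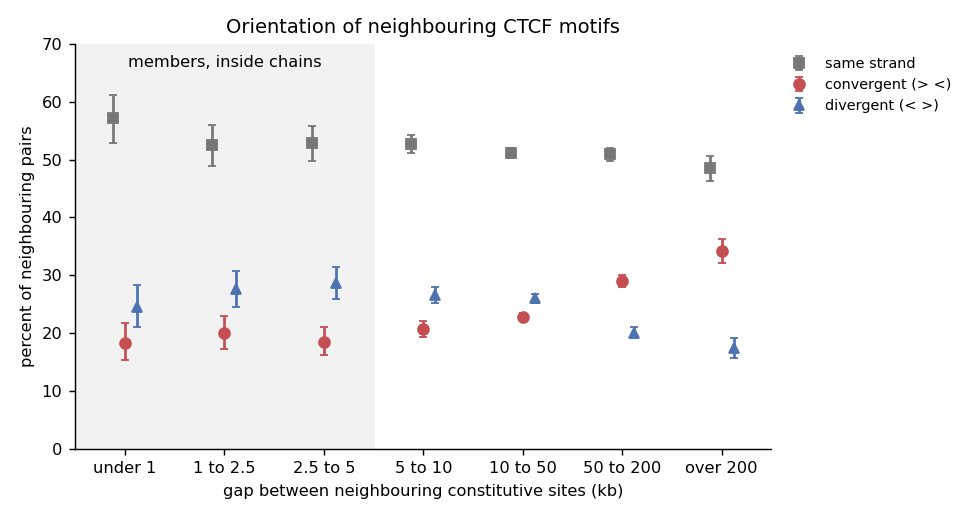
Share of neighbouring motif pairs in percent that were on the same strand, convergent or divergent, by the gap between the sites, with 95% Wilson intervals as bars. Divergent pairs exceed convergent pairs at the gaps found within chains (27.4% and 18.9% over all of them) and the order turns above 50 kb, to 17.4% and 34.1% over 200 kb.

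Whole chains showed the same order. In 927 chains every site had a motif. The motifs were all on one strand in 233 of them (25.1%). The outermost motifs faced away from each other in 327 (35.3%) and towards each other in 156 (16.8%). A lone switch from minus to plus occurred in 310 chains (33.4%) and a lone switch from plus to minus in 142 (15.3%). Of chains of 3, 35.4% had outward and 16.2% inward outermost motifs, whereas runs of 3 neighbours more than 5 kb apart had 24.5% and 27.2% (19627 overlapping runs). No test was made of these shares, since neighbouring sites share their positions.

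Clustered sites were stronger than single sites in 8 of 8 libraries. At day 0 the median pileups of clustered and single sites were 63 and 55 in WT replicate 1, 39 and 31 in WT replicate 2, 70 and 53 in K20R replicate 1 and 67 and 52 in K20R replicate 2. At day 4 they were 45 and 39 in both WT replicates, 42 and 33 in K20R replicate 1 and 68 and 50 in K20R replicate 2. The ratio ran from 1.15 to 1.36, and the difference of median ranks was 12.4 ± 1.81 percentile points (SD, n = 8 libraries). Ranked by fold enrichment, the difference was 10.9 ± 1.71 points. Sites in chains of 2 lay between, with median ranks 1.72 to 5.71 points below clustered sites, so greater height was not particular to longer chains. The top 20% of constitutive sites by mean rank held 28.2% of clustered sites, 24.4% of sites in chains of 2 and 17.4% of single sites. The bottom 20% held 15.4%, 16.9% and 21.7%. No test is given, since the 8 libraries measure the same sites. Clustered sites were also wider, 590 bp against 559 bp in chains of 2 and 515 bp at single sites (medians). Width enters the gaps that the rule used.

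**Figure D4:**
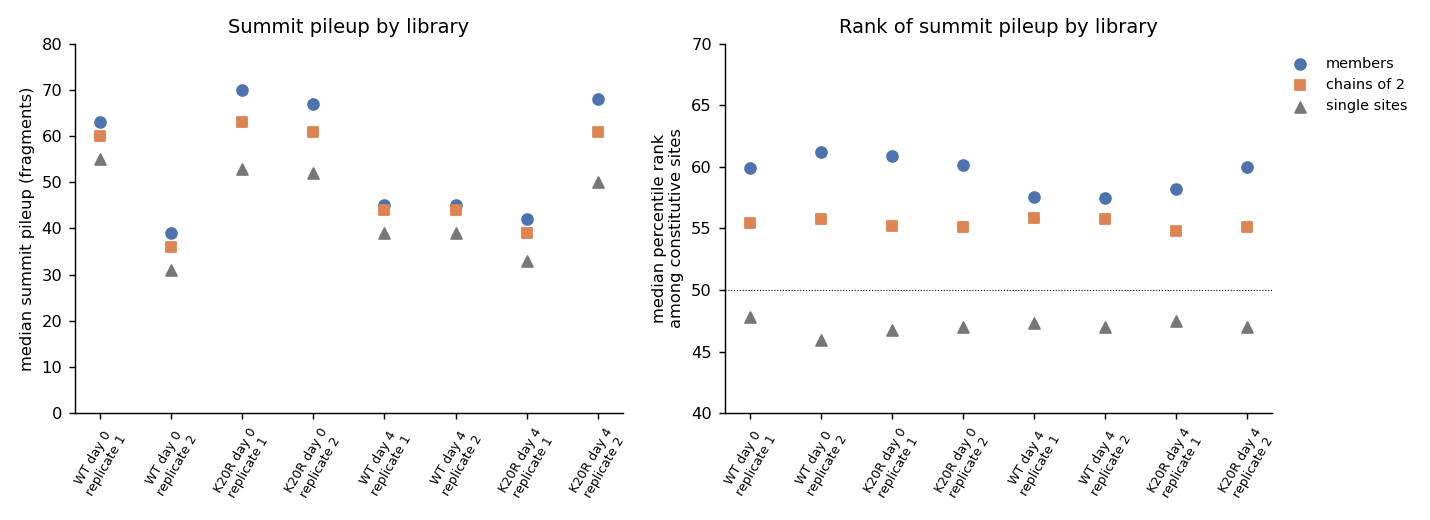
Median summit pileup (left, fragments) and median percentile rank of pileup among constitutive sites (right) in each of the 8 libraries, for clustered sites, chains of 2 and single sites. Clustered sites lie highest in rank in every library, 10.3 to 15.3 points above single sites.

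A chain was nonetheless a mixture of heights. The strongest site of a chain had a median rank of 83.4 and the weakest a median of 26.3. The highest and the lowest of at least 3 ranks lie apart by construction. What unrelated sites would give was not computed, so these values and the shares of chains below are descriptions. The strongest site was in the top 20% in 710 chains (62.4%) and the weakest in the bottom 20% in 476 (41.9%). In 221 chains (19.4%) every site lay above the constitutive median. Strength was not shared between neighbours. Across 606 neighbouring pairs under 1 kb apart, the Spearman correlation of their strength was 0.0382, and across 29204 pairs over 5 kb apart it was 0.0714, both over pairs that share libraries. The strongest site was the same in all 8 libraries in 539 chains (47.4%). It carried the best motif score of its chain in 507 chains (44.6%). In chains of 3, the middle site was the strongest in 308 (36.0%, 32.9 to 39.3%).

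The strongest and the weakest sites could share a chain. The clustered site with the highest mean percentile of fold enrichment lay 152 bp from the start of Kdm3b, a histone demethylase gene, at chr18:34776450-34777749. Its pileups were 133 and 157 in WT and 283 and 246 in K20R at day 0, and 108 and 103 in WT and 119 and 296 in K20R at day 4. The same chain held one of the 3 weakest clustered sites, in an intron of Kdm3b at chr18:34782973-34783365, with pileups of 24 and 7 in WT and 14 and 14 in K20R at day 0, and of 10 and 11 in WT and 9 and 7 in K20R at day 4. The first exceeded the second in every library, an order largely set by choosing them on the mean percentile over these libraries.

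Clustered sites were nearer to start sites but not more often inside genes. Their summits lay within 3 kb of a start site at 25.8% of clustered sites, 26.6% of sites in chains of 2 and 21.6% of single sites, and the median distance was 7799.5 bp in clusters against 11824.5 bp at single sites. Within 1 kb the shares were closer, 12.3% (11.3 to 13.4%) of clustered and 11.5% (11.1 to 11.9%) of single sites. Exons held 9.44% of clustered and 7.49% of single summits, introns 45.3% and 49.4%, and intergenic sequence 45.3% and 43.1%. The GC content was 50.2% against 47.8% at the median. Part of the closeness to start sites went with strength. In the top 20% by strength, 28.7% of clustered and 29.9% of single sites lay within 3 kb of a start, whereas in the bottom 20% the shares were 29.2% (25.6 to 33%) and 21.3% (20.2 to 22.4%). The difference between clustered and single sites was thus found among weak sites.

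H3K27ac was likewise found more often at clustered than at single sites. In WT EBs, 14.6% of clustered and 10.6% of single sites overlapped a peak, and in K20R EBs 20.0% and 13.7% did. Sites in chains too short to count as clusters had 14.2% in WT and 18.7% in K20R. Their Wilson intervals (13.5 to 15.1% and 17.8 to 19.6%) overlapped those of clustered sites (13.6 to 15.8% and 18.8 to 21.3%). A higher share than at single sites was thus not particular to clusters. The K20R list was longer (45318 peaks against 38982), and no replicate was available, so the genotypes were not compared by a test. By chains, 327 had acetylation in both genotypes, 43 in WT only, 135 in K20R only and 632 in neither. In the bottom 20% by strength, 13.3% of clustered and 9.01% of single sites overlapped WT H3K27ac, and in the top 20% 20.4% and 19.1% did. In the middle 20% the shares were 13.1% and 8.05% for WT and 20.0% and 10.1% for K20R H3K27ac. The difference was thus not confined to the weakest sites.

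Among gene families, the protocadherins stood out by count. Chains overlapped 873 of 20780 protein-coding genes (4.20%) and 26 of 66 Pcdh genes (39.4%). They overlapped 23 of 358 Slc transporter genes, 11 of 385 Zfp zinc finger genes, 2 of 39 Hox genes, 1 of 53 Krt keratin genes, 1 of 1127 Olfr odorant receptor genes and 0 of 67 Hist histone genes. Pcdh isoforms share exons and overlap each other, so these genes are not independent. Of the genes listed for known CTCF loci, loop machinery and mesoderm or cardiac fate, only Hoxd10 and Hoxd11 were overlapped by a chain.

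The Hoxd chain had 3 sites. Its middle site (chr2:74691478-74691914), 147 bp from the start of Hoxd10, a gene of limb and trunk patterning, had no motif match and was weak (rank 20.2). Pileups there were 28 and 21 in WT and 25 and 18 in K20R at day 0, and 31 and 32 in WT and 15 and 24 in K20R at day 4. At day 4 the WT values lay above both K20R values. The log2 fold enrichment was lower in K20R at day 4 by the limma test over all constitutive sites (difference -1.40 ± 0.29 SE, adjusted p = 0.0014), and the log2 pileup too (-0.82 ± 0.28, adjusted p = 0.040). With the pileup quantile normalized across libraries, the limma call was lost (-0.48 ± 0.29, adjusted p = 0.33). The outer sites of the chain, on the plus and the minus strand, ranked at 69.3 and 73.0 and did not pass the test at day 4 on either measure.

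A chain of 3 sites began 1985 bp from Eomes, the T-box gene of early mesoderm that the study follows. Its first site overlapped H3K27ac in both genotypes. Site 3 (chr9:118494015-118494461) had pileups of 69 and 41 in WT and 58 and 78 in K20R at day 0. The values at day 4 were 20 and 28 in WT and 16 and 24 in K20R. Every day 4 value lay below every day 0 value. By limma the log2 pileup fell by 1.10 in WT (SE 0.24, adjusted p = 0.015) and fell by 1.41 in K20R (SE 0.24, adjusted p = 0.0039), and fold enrichment also fell in both. This site did not pass the test between genotypes on either day. Its motif is shown beside that of site 2 (chr9:118489479-118490009), the strongest of the chain, which ranked at 91.9. Site 2 had a higher log2 pileup in K20R at day 4 (0.74 ± 0.19 SE, limma adjusted p = 0.011). Fold enrichment did not give this call (0.38 ± 0.20, adjusted p = 0.15). Quantile-normalized pileup did not give it either (0.29 ± 0.14, adjusted p = 0.23). The study describes decreased CTCF binding at the Eomes locus in K20R, and whether it means these sites is not known here. Sites 2 and 3 carried motifs on opposite strands, minus and then plus.
Eomes chain, site 2: tggCCAccAGatGGCGgag
Eomes chain, site 3: aggCCAgaAGaGGGCGtca

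The central comparison of the study is that of K20R and WT. Because members had a peak in every list, sites whose peak was lost in K20R are absent from it, and the split of higher and lower calls holds for sites that kept a peak. In EBs at day 4, 905 clustered sites had higher and 442 had lower log2 fold enrichment in K20R by limma at an adjusted p under 0.05. Over all constitutive sites, 18.6% were called higher and 14.2% lower, and clustered sites had 23.8% and 11.6%. On pileup, 770 were higher and 319 lower (20.2% and 8.39%, against 15% and 10.1% of all). The median log2 difference in fold enrichment was 0.15 over clustered sites and 0.04 over all sites. Fewer sites were called when either WT library of day 4 was left out. A lone library in a group has no spread of its own, so this drop cannot be credited to the values of the library removed. Its cause was not tested.

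The surplus of higher calls moved with strength. In K20R, strong sites were often called higher and weak sites lower, in clusters as elsewhere. With the constitutive sites cut into 5 equal groups by mean rank, from the weakest to the strongest, 2.73%, 6.41%, 15.5%, 31.2% and 45.1% of clustered sites were called higher at day 4. Single sites had 1.25%, 5.23%, 15.0%, 28.1% and 41.3% in the same groups. The groups were set on the mean pileup over the same 8 libraries, so they are not independent of the calls, and the shares are a description. The step from the weakest to the strongest group was far larger than the gap between clustered and single sites of like strength.

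Equalising the spread of the libraries changed the split. With quantile normalization, 518 clustered sites were called higher and 404 lower on fold enrichment (13.6% and 10.6%, against 11.3% and 10.5% of all). On quantile-normalized pileup, an alternative added after the data had been seen, 111 were higher and 111 lower (2.92% each, against 2.55% and 3.29% of all). In all 4 settings, 65 clustered sites were called higher and 73 lower (1.71% and 1.92%, against 1.4% and 2.08% of all). The surplus of higher over lower calls in clusters therefore did not remain on every measure.

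**Figure D5:**
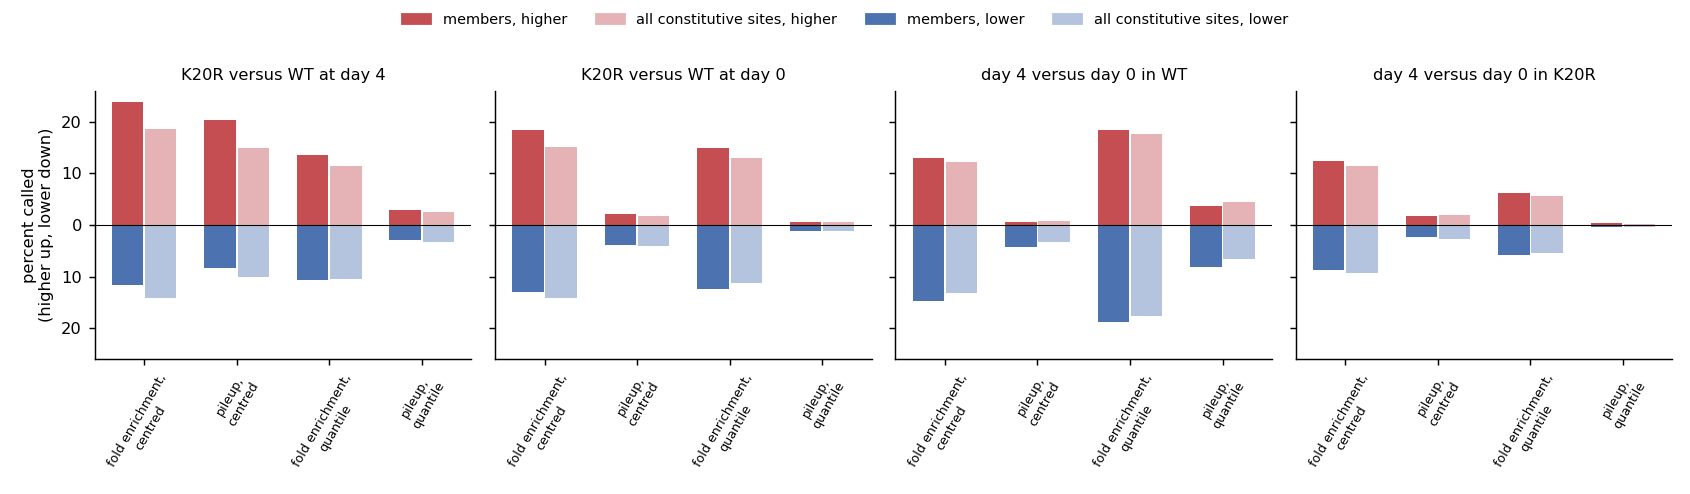
Percent of clustered sites and of all constitutive sites called higher or lower in 4 comparisons, under 4 settings (fold enrichment or pileup, each median centred or quantile normalized). At day 4, higher calls in K20R exceed lower calls with median centring, 23.8% and 11.6% of clustered sites on fold enrichment, and the excess is gone on quantile-normalized pileup.

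Individual sites passed every setting. The largest gain in fold enrichment was at a site of Rapgef4, a gene for a cAMP-responsive exchange factor (chr2:72041908-72042451). Its pileups at day 4 were 32 and 29 in WT and 51 and 77 in K20R, and at day 0 they were 82 and 41 in WT and 112 and 111 in K20R. The groups of day 4 did not overlap. The log2 difference at day 4 was 2.15 ± 0.20 (SE) in fold enrichment (limma adjusted p = 5.1e-06) and 0.96 ± 0.17 in pileup (adjusted p = 0.0019).

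A site near Mir7688 (chr10:93421701-93422048) rose as well, from pileups of 28 and 28 in WT to 51 and 60 in K20R at day 4. In mESCs its pileups were 55 and 34 in WT and 44 and 58 in K20R, and those groups overlapped. The log2 pileup difference at day 4 was 0.90 ± 0.21 (SE, limma adjusted p = 0.0076). Sites near Gm10286, Slc29a3, a nucleoside transporter gene, and Mir5122 completed the 5 largest gains, with 1.81 to 1.84 in log2 fold enrichment and 0.68 to 0.99 in log2 pileup, and they lost the call on quantile-normalized pileup.

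The 5 largest losses were at sites below the constitutive median in strength, with ranks of 14.6 to 35.9. A site near Gm22646 (chr19:43623869-43624291) was lower in K20R than in WT at both times. Its pileups were 60 and 27 in WT and 14 and 11 in K20R at day 0, and 52 and 51 in WT and 15 and 32 in K20R at day 4. Both K20R values lay below both WT values on each day. The log2 pileup difference was -2.08 ± 0.27 (SE) at day 0 (limma adjusted p = 0.0011) and -1.32 ± 0.27 at day 4 (adjusted p = 0.0042).

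A site near Necap2, a gene of clathrin-mediated endocytosis (chr4:141069609-141070096), had 67 and 31 in WT and 27 and 27 in K20R at day 0, and 48 and 39 in WT and 13 and 20 in K20R at day 4. The log2 pileup difference at day 4 was -1.51 ± 0.25 (SE, limma adjusted p = 0.0014). Sites near Hap1 and Gm20711 also fell, by 1.61 and 2.03 in log2 pileup, and all of these losses passed the test on quantile-normalized pileup. The motifs of the gained and lost sites are shown to compare their match to the consensus.
Rapgef4 site, higher: aggCCAgaAGGtGGCGtaa
Mir7688 site, higher: aggCCAgaAGGGGGCGCca
Gm22646 site, lower: agcCCActAGaGGGCaCtg
Necap2 site, lower: tgaCCAgatGGtGGCagta
Gm20711 site, lower: ccaCCAgcAGGtGGCaCtg

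In mESCs at day 0, 698 clustered sites had higher and 491 had lower log2 fold enrichment in K20R, beside 15.1% and 14.1% of all constitutive sites. These are 18.3% and 12.9% of the clustered sites. Far fewer were called on pileup, 82 higher and 148 lower (2.16% and 3.89%, against 1.79% and 4.16% of all). Quantile normalization gave 1043 calls on fold enrichment, beside 24.3% of all sites, and 67 on pileup, beside 1.67%. In all 4 settings, 14 were higher and 30 lower, beside 0.289% and 0.762% of all sites. The direction of the calls at day 0 also depended on the setting, with 405 higher and 5 lower without centring and 188 higher and 213 lower with a log2 difference of at least 1 (10.8% and 10.5% of clustered sites, against 8.58% and 9.96% of all). The 5 sites with the largest gains, near Adgrb1, Foxd2, Zfp853, Prr5 and Tcp11, lost their calls on pileup. At the Foxd2 site (chr4:114908207-114909452), for example, pileups were 102 and 80 in WT and 163 and 144 in K20R. The log2 difference there was 1.90 ± 0.20 (SE) in fold enrichment (limma adjusted p = 1.8e-05) and 0.38 ± 0.20 in pileup (adjusted p = 0.23).

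The losses at day 0 held better. The sites near Gm22646, Upk1a, Slc39a13, Slc7a7 and Dnajc22 were all called lower on pileup too, and those near Gm22646 and Slc7a7 also on quantile-normalized pileup. The Slc7a7 site (chr14:54408296-54408666), near an amino acid transporter gene, had 48 and 30 in WT and 19 and 15 in K20R, a log2 pileup difference of -1.55 ± 0.29 (SE, limma adjusted p = 0.0063). It lay in a stretch of chromosome 14 (40 to 70 Mb) where 34 clustered sites had a median log2 pileup difference of -0.53 at day 0 and -0.52 at day 4. In a stretch of chromosome 8 (80 to 110 Mb), 65 clustered sites had medians of 0.65 and 0.59. The first site of the Ptma chain (chr1:86520274-86520704) was lower at day 0, with 30 and 26 in WT against 10 and 9 in K20R (log2 pileup -1.94 ± 0.29 SE, limma adjusted p = 0.0026).

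Neighbours in a chain hardly changed together. Over 2667 neighbouring pairs in chains, the Spearman correlation of the log2 pileup difference at day 4 was 0.0476, and 57.0% of the pairs had the same sign, beside 0.0907 and 53.8% for neighbours over 5 kb apart. These pairs share the libraries, and the values are descriptions.

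Differentiation was compared within each genotype, with libraries that the genotype comparisons also used. In WT, 490 clustered sites were higher and 559 lower at day 4 than at day 0 in fold enrichment, beside 12.1% and 13.3% of all constitutive sites. These are 12.9% and 14.7% of clustered sites. On pileup, 20 were higher and 159 lower, beside 0.703% and 3.25% of all sites. Quantile normalization gave 1417 calls on fold enrichment, beside 35.3% of all sites, and 450 on pileup, beside 11.1%. In all 4 settings, 17 clustered sites were higher and 112 lower, beside 0.559% and 2.53% of all sites.

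In K20R, 470 were higher and 332 lower in fold enrichment, beside 11.4% and 9.33% of all sites, which are 12.4% and 8.73% of clustered sites. On pileup, 66 were higher and 91 lower, beside 1.88% and 2.71% of all sites. Quantile normalization gave 464 calls on fold enrichment, beside 11% of all sites, and 26 on pileup, beside 0.554%. In all 4 settings, 10 were higher and 14 lower, beside 0.208% and 0.256% of all sites. The shares of clustered sites lay near those of all sites in both genotypes.

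Whether the genotype difference itself changed with differentiation was tested as an interaction. In fold enrichment, 321 clustered sites moved up and 221 moved down in K20R relative to WT between the days, beside 7.61% and 5.81% of all constitutive sites. On pileup, limma called 0 clustered sites in each direction, beside 0% of all sites, and 263 had an unadjusted p under 0.05. The share of all sites at that unadjusted p was not taken, so 263 is a bare count. Quantile normalization gave 742 calls on fold enrichment, beside 17.2% of all sites, and 0 on pileup. A change of the genotype difference was therefore called on fold enrichment but not on pileup.

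Other CTCF sites near the clusters did not need a peak in every list. Within 5 kb of clustered sites lay 1265 merged sites that were not constitutive, 0.333 per clustered site, against 0.416 per single site. The 5 kb windows of neighbours in a chain overlap by the rule, and a site in several windows counted once. The values per site therefore do not compare the density of other sites around clustered and single sites. Of the 358 that were called in both WT libraries at day 4, 189 (52.8%, 47.6 to 57.9%) were called in neither K20R library, and 3 other sites showed the reverse, a peak in each K20R list of that day and none in the WT lists. The K20R lists of day 4 were shorter, with 41360 and 47463 peaks against 61088 and 61436 in WT, and the part of list length in this share was not tested. The share was 54.6% beside single sites and 56.4% over 5 kb from any constitutive site. At day 0 the shares were 29.8% beside clustered and 28.2% beside single sites. The intervals overlapped on both days, so a difference between sites beside clusters and those beside single sites was not detectable here.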

How the data were processed

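CTCF ChIP-seq of 8 libraries and H3K27ac ChIP-seq of 2 were used, and 4 input samples without lists were not used. The authors trimmed reads with Trim Galore, aligned them to mm10 with Bowtie2, dropped reads of low mapping quality, duplicates and blacklisted regions, brought the CTCF libraries to equal read numbers and ran MACS2 on each library, with narrow peaks for CTCF and broad peaks for H3K27ac. Versions of these tools are left to the methods of the study, and the input used for each library is not given in the sources used here. Values in the deposited lists are fold enrichment, −log10 p-value and −log10 q-value per peak, as the authors' caller wrote them. The deposited integer score of each peak was not used. No read counts are in them, so the count test of the methods could not be run, and depth is known here only as the equal read number of the CTCF libraries before peak calling and as the pileups.

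The strongest peak of each library in a site gave its fold enrichment, from which the pileup was solved. Log2 values, centred on each library's median, were fitted with limma 3.58.1 (R 4.3.3, empirical Bayes with trend, 4 group means, 8 libraries) over 35584 sites with Benjamini-Hochberg adjustment. Alternatives were pileup, quantile normalization, no centring, a −log10 q of at least 5, other gap limits, the replicate number as a block, and fits with 1 library removed. The members and gene lists were chosen with earlier results of these data known. Named were the 8 chains with most sites (shorter span first on ties), the 3 strongest and 3 weakest members by mean percentile, the 5 largest called differences per direction in each genotype comparison, and the chains within 5 kb of a listed gene, the last added after values were seen. Some of these are not printed. Annotation was GENCODE M21 basic, and sequences were read from GRCm38, the same build as mm10. The tests were also run on simulated data with independent noise. The simulation had neither a background shared within groups nor a wider spread in K20R, so it does not check the calls against these features. Replicate numbers did not mark shared cultures in the labels. Python 3.11.15, pandas 2.3.3, scipy 1.17.1, pysam 0.24.0 and matplotlib 3.10.9 were used.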

Additional observations from a re-analysis of the deposited data

Results flagged for a closer look

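The K20R against WT difference changed between day 0 and day 4 at 542 clustered sites in log2 fold enrichment by the interaction test of limma, 321 towards higher and 221 towards lower values in K20R at day 4, beside 7.61% and 5.81% of all constitutive sites. On pileup the same test called 0 clustered sites (263 at an unadjusted p under 0.05), and on quantile-normalized pileup 0 (298 unadjusted). The unadjusted counts have no share of all sites beside them and are not read as a result about clusters. On quantile-normalized fold enrichment the test called 742 (19.5%, against 17.2% of all sites). Without either K20R library of day 0 there were 244 and 247 (6.30% and 6.42%, against 5.19% and 5.57% of all sites), and without either WT library of day 4 there were 295 and 274 (7.71% and 7.16%, against 6.81% and 6.29%).

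Single sites show the gap between the measures. The site near Unc119 (chr11:78355288-78356094) had pileups of 83 and 57 in WT and 129 and 107 in K20R at day 0, and of 68 and 72 in WT and 70 and 144 in K20R at day 4. Its interaction was -2.22 ± 0.26 (SE) in log2 fold enrichment (limma adjusted p = 0.00016) and 0.05 ± 0.26 in log2 pileup (adjusted p = 0.98). The site near Mir7688 kept its direction, with 2.04 ± 0.30 in log2 fold enrichment (limma adjusted p = 0.00049) and 1.05 ± 0.30 in log2 pileup (adjusted p = 0.70). The background under the peaks, which replicates of a group shared, enters the first measure and not the second, and its part in these calls was not tested.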

How the results depend on the processing

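A gap limit of 2 kb gave 956 clustered sites and one of 10 kb gave 8592, and leaving out each library gave 3793 to 4465. Counts of called clustered sites depended on the measure and the scaling. At day 4 between genotypes, 1347 became 89 without centring, 440 with a log2 difference of at least 1 and 222 on quantile-normalized pileup (2.34%, 11.6% and 5.84% of clustered sites, against 1.82%, 11.1% and 5.84% of all). At day 0, 1189 became 230 on pileup, 410 without centring, 401 with the log2 limit and 67 on quantile-normalized pileup (6.05%, 10.8%, 10.5% and 1.76%, against 5.95%, 8.58%, 9.96% and 1.67%). In WT over time, 1049 became 179, 9, 301 and 450 in the same order (4.71%, 0.237%, 7.91% and 11.8%, against 3.95%, 0.202%, 7.67% and 11.1%). In K20R over time, 802 became 157, 34, 240 and 26 (4.13%, 0.894%, 6.31% and 0.683%, against 4.59%, 1.03%, 6.46% and 0.554%), with 0 higher and 34 lower without centring, and 464 with quantile normalization of fold enrichment (12.2% against 11%). The interaction gave 0 on pileup (263 at an unadjusted p under 0.05 by limma, a bare count), without centring and on quantile-normalized pileup. The cause was not tested.

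Leaving out each library gave 700 to 1546 calls at day 4, 574 to 1579 at day 0, 443 to 1329 in WT over time, 299 to 976 in K20R over time and 244 to 619 for the interaction. At day 4 and in WT over time, the lowest counts came without a WT library of day 4. At day 0 and in K20R over time, the lowest counts came without a K20R library of day 0. A lone library of a group was then assumed to vary like the other groups. With a replicate block the counts were 1466, 1312, 1154, 919 and 669, and no call at a named site was lost. These counts are 38.5%, 34.5%, 30.3%, 24.2% and 17.6% of clustered sites, against 35.6%, 32%, 28%, 23.4% and 16% of all sites. Replicate differences correlated by -0.04 to 0.32 between groups, so the numbers did not pair the libraries. Ranked by fold enrichment, the strength difference stayed at 10.6 to 11.3 percentile points without each library. The difference of pileup ranks was not recomputed in this way.

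The share of clustered sites with a motif was 84.3% at the stricter threshold, that within 1 kb of a start was 12.3% (11.5% of single sites), and that in H3K27ac was 8.33% in WT and 9.60% in K20R with a −log10 q of at least 5, and 8.25% and 12.1% by summit. Of 30 named differences, 15 kept their call on pileup and 14 lost it, and the site near Unc119 reversed, to a log2 pileup interaction of 0.0452. On quantile-normalized pileup 9 of the 30 kept their call and 20 lost it, and the site near 1500009C09Rik reversed, to -0.0803. Few replicates, no counts and lists without expression data limit these values.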
